A study of Mus musculus with 24 samples.

Results

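The SLC25 family of mitochondrial carriers was followed in brown adipose tissue. Members were all rows whose gene symbol was Slc25a followed by a number, and these were 46 of the 23017 genes in the table. The uncoupling proteins Ucp1 to Ucp3, which belong to the same family but carry other symbols, were not included. Of the 46 members, 38 passed the filter on low values and were tested. The 24 samples were polyA RNA libraries, made from the brown fat of C57BL/6J mice, 6 in each of 4 groups, and the series title describes the mice as obese and insulin resistant. The TZP group received tirzepatide, an agonist of both the GIP and the GLP-1 receptor. The LAGIPRA group received an agonist of the GIP receptor alone that acts for a long time. The PairFedVehicle group received vehicle with pair feeding, in which animals are given the amount of food that another group eats, and the Vehicle group received vehicle alone. The sources used here do not give doses, treatment time, age, sex or the group that set the pair-fed intake. Nothing in the labels says that samples of a group came from separate animals, so p-values measure the spread between samples, which may be technical.

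SLC25 carriers are membrane proteins that exchange metabolites, nucleotides, cofactors and inorganic ions, mostly across the inner mitochondrial membrane. They set what reaches the matrix for oxidation and what leaves it for synthesis, such as citrate for fatty acid synthesis, carnitine esters for fatty acid oxidation and ADP for ATP synthase. Brown fat is rich in mitochondria, burns fatty acids and branched-chain amino acids for heat and also makes fatty acids, so it uses many of these carriers at a high rate.

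All values below are log2 values as deposited, taken to be normalized expression on a log2 scale with an offset near 1, so fold changes of low genes are understated. A member was called where limma gave a Benjamini-Hochberg adjusted p under 0.05 over the 17263 tested genes. Levels are given for each gene on its own and were not compared between genes. The tissue label fitted Ucp1, the heat-producing uncoupling protein, which lay between 14.70 and 15.91 in the 24 libraries. The mean of 11 brown adipocyte markers, all with rows, ran from 10.61 to 11.60. Prdm16, on the same list, ran from 3.16 to 5.48. The mean of 16 skeletal muscle markers ran from 0.62 to 10.02 and was under 1 in 3 libraries, TZP 3, PairFedVehicle 5 and Vehicle 1. The mean of 6 erythroid markers was 9.41 in TZP and 10.81 in Vehicle (exact permutation p = 0.00649, two-sided, adjusted over 42 library tests 0.0390). The mean of 9 macrophage markers was 8.71 in TZP, 8.53 in LAGIPRA, 8.89 in PairFedVehicle and 9.22 in Vehicle, and no difference between groups passed after adjustment. The mean of 8 endothelial markers ran from 7.23 to 7.64 in TZP, 7.77 to 7.87 in LAGIPRA, 7.78 to 7.97 in PairFedVehicle and 7.69 to 7.96 in Vehicle. It was lower in TZP than in each other group with no overlap (exact permutation p = 0.00216 each, two-sided, adjusted 0.0227), and its part in the TZP comparisons was not tested. Within this list, Egfl7 (7.06 in TZP, 6.98 in Vehicle) and Emcn (6.61 and 6.35) went the other way, and all other endothelial markers averaged lower in TZP than in Vehicle. The brown adipocyte mean was 11.21 in LAGIPRA and 10.91 in Vehicle (exact permutation p = 0.00433, adjusted 0.0364), and its part in the LAGIPRA comparisons was not tested. The slope of a library's values on transcript length was between -0.165 and -0.0643 in TZP 3 to TZP 6, and between -0.0055 and 0.0582 in the other 20 libraries. It averaged 0.044 in Vehicle, and less in TZP (-0.066, exact permutation p = 0.00649, adjusted 0.0390) and PairFedVehicle (0.012, p = 0.00866, adjusted 0.0455). In LAGIPRA it averaged 0.010 (exact permutation p = 0.0152, adjusted 0.0707). In bulk tissue, fewer cells of a type and less RNA per cell cannot be told apart.

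Treatment with either drug went with higher levels of many carriers. In TZP against Vehicle, 13 members were higher and 2 lower, which is 34.2% and 5.3% of the 38 tested. Of all tested genes 11.7% were higher and 10.3% lower. LAGIPRA against Vehicle had 13 higher and 1 lower (34.2% and 2.6% of members), beside 8.70% of all tested genes higher and 5.03% lower. Pair feeding alone had 3 higher and 2 lower (7.9% and 5.3%), beside 4.96% and 3.66%. The median difference over the 38 members was 0.18 in TZP, 0.25 in LAGIPRA and 0.02 in PairFedVehicle, each against Vehicle, where the median over all tested genes was 0.04, 0.03 and 0.02. These 3 comparisons share the Vehicle samples.

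**Figure D1:**
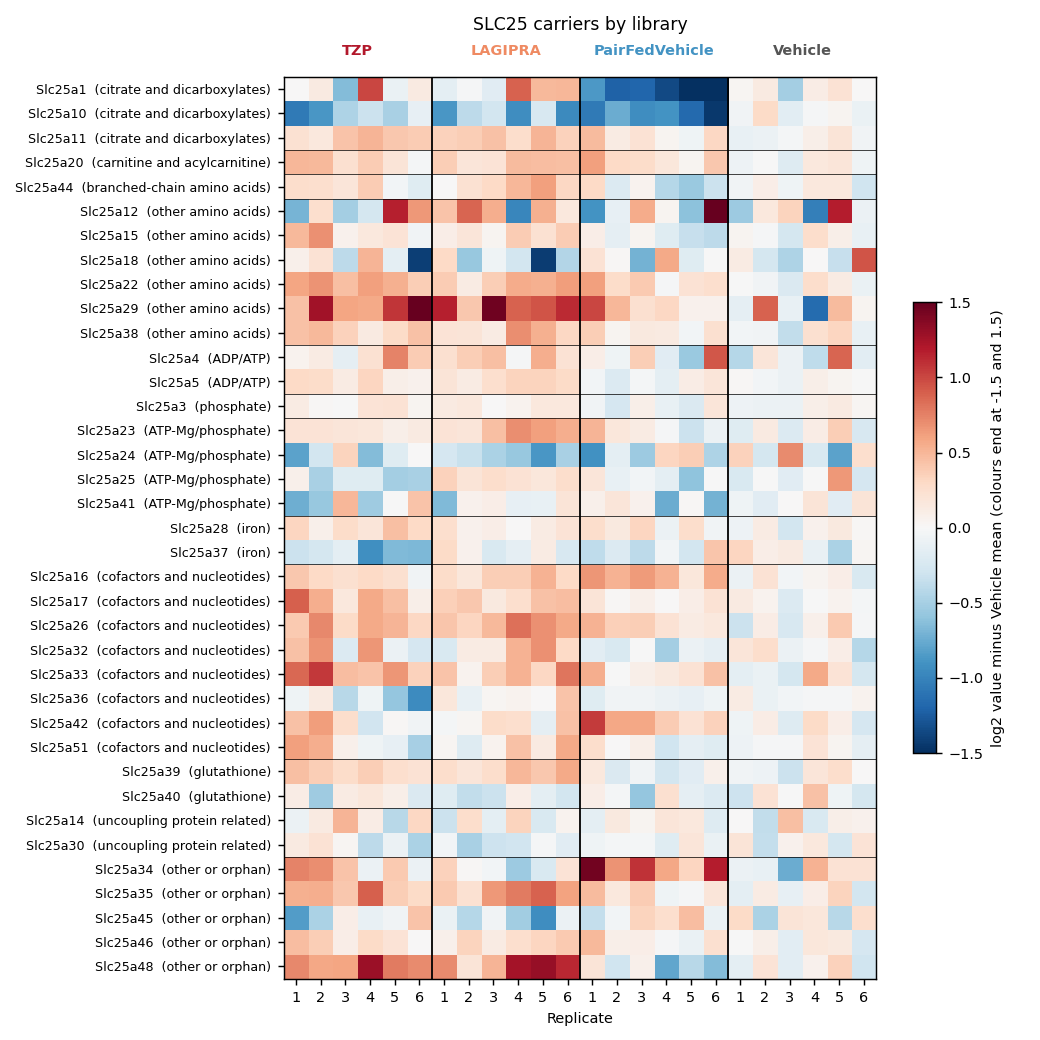
Log2 value of each of 37 tested SLC25 carriers (rows, grouped by role) in each library (columns) minus the gene's mean in Vehicle, with colours ending at -1.5 and 1.5. Slc25a1 and Slc25a10 are low in all 6 PairFedVehicle libraries, Slc25a48 is high in the TZP and LAGIPRA libraries, and Slc25a34 is high in PairFedVehicle.

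Set against pair-fed animals, TZP had 7 members higher and 1 lower (18.4% and 2.6%), beside 8.39% of all tested genes higher and 8.02% lower. LAGIPRA had 9 higher and 1 lower (23.7% and 2.6%), beside 7.30% and 4.55%. The median difference over members was 0.13 in TZP and 0.19 in LAGIPRA, where the medians over all tested genes were -0.00 and -0.01. Both comparisons share the PairFedVehicle samples. Across the 6 comparisons 23 members were called at least in 1, and 15 in none. The same count was not made over all tested genes, so whether members stand out by it is not known. Groups that did not overlap at all were found for 2 members in TZP against Vehicle (5.45% of all tested genes), 5 in LAGIPRA against Vehicle (4.65%), 2 in PairFedVehicle against Vehicle (4.76%), 3 in TZP against PairFedVehicle (4.92%) and 2 in LAGIPRA against PairFedVehicle (5.86%).

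**Figure D2:**
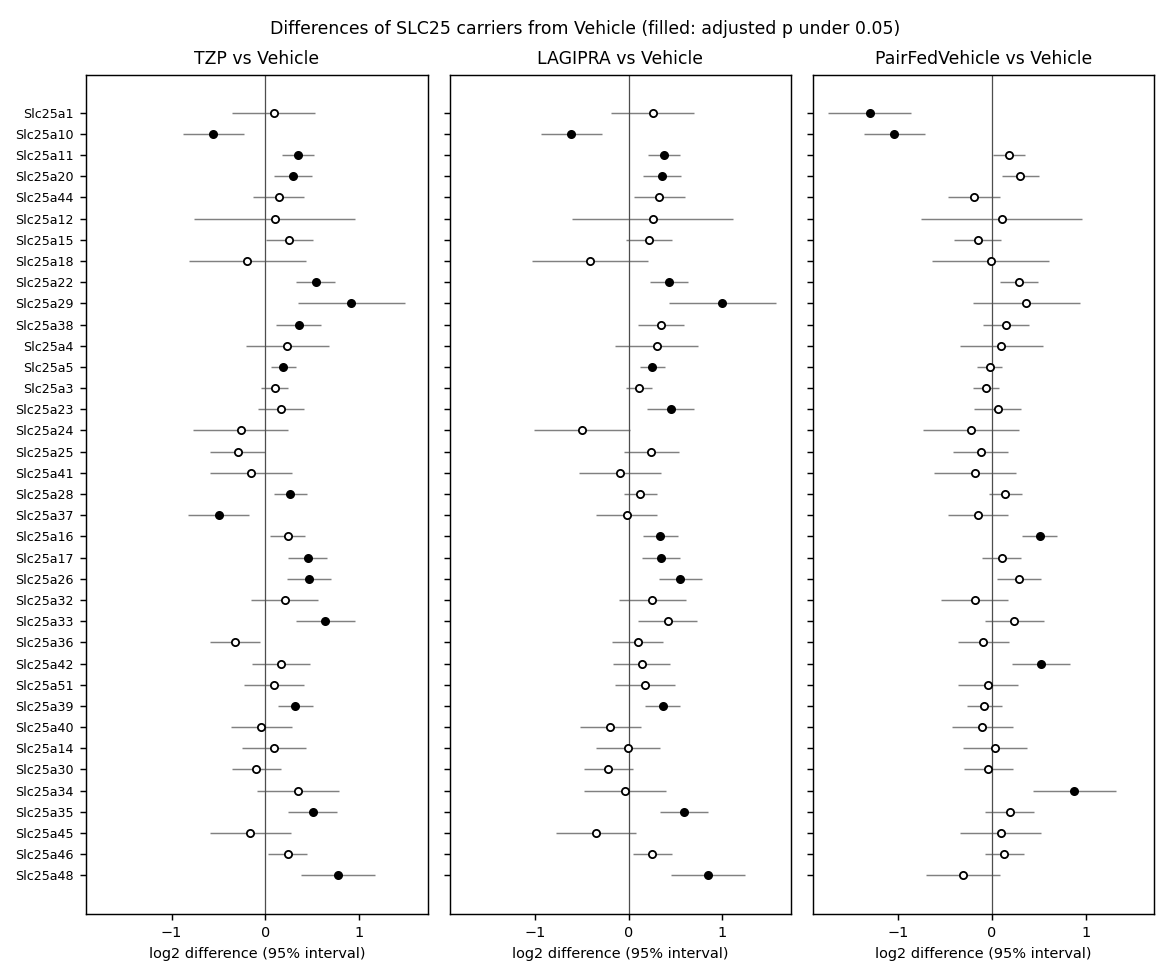
Log2 difference from Vehicle with its 95% interval (x axis) for 37 tested SLC25 carriers (y axis) in TZP, LAGIPRA and PairFedVehicle, with filled points where the adjusted p was under 0.05. Most points of the TZP and LAGIPRA panels lie right of 0, and the points farthest to the left are Slc25a1 and Slc25a10 in PairFedVehicle.

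Some library properties moved with the groups. In each library, the commonest low value was read as the step of 1 read, which is larger at lower depth. It averaged 1.32 in TZP, 1.35 in LAGIPRA, 1.15 in PairFedVehicle and 1.04 in Vehicle, with adjusted exact permutation p of 0.127 for TZP and 0.116 for LAGIPRA against Vehicle. With that value in the fit, 6 members were called in TZP and none in LAGIPRA against Vehicle, beside 2496 and 45 of all tested genes. With the macrophage mean in the fit, 8 members were called in TZP and none in LAGIPRA against Vehicle, beside 2528 and 0 of all tested genes. Whether library depth or macrophage content had a part in these differences was not tested beyond these fits. The alternative fits counted below are changes of filter, scaling, model or covariate and the removal of sets of libraries, 13 to 16 for each call. In all, 13 of the 52 calls, for 8 members, held under every alternative and with any library left out, and 29 of the 52 held with any library left out.

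The citrate carrier Slc25a1 had the largest difference of any tested member in PairFedVehicle against Vehicle and in either drug group against PairFedVehicle. It exports citrate from mitochondria to the cytosol, where citrate is the source of acetyl-CoA for fatty acid synthesis. Because this gene moved so far, its promoter window from RefSeq (GRCm38.p6, chr16:17928170-17928469, minus strand, 250 bases before to 50 after the start) is shown with motif letters in capitals. They mark the E-box CACGTG, the GC box GGGCGG, found on the other strand as its reverse complement, and the CCAAT box, likewise on either strand.
Slc25a1 promoter: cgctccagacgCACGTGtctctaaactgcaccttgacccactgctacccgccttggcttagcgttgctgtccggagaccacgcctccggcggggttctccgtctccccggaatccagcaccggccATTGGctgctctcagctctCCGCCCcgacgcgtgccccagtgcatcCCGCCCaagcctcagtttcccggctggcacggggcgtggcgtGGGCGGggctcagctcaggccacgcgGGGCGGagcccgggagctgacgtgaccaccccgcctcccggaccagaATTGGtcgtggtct
The window holds 1 CACGTG at bases 12 to 17, 2 CCAAT and 4 GGGCGG, read on both strands, and its GC content is 69.3%. A letter match is a description and not a site.

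The lowest, median and highest Slc25a1 values were 8.04, 8.76 and 9.68 in TZP, 8.51, 8.92 and 9.56 in LAGIPRA, 7.0, 7.40 and 7.82 in PairFedVehicle, and 8.18, 8.76 and 8.90 in Vehicle. Every pair-fed library lay below every library of the other groups. PairFedVehicle was lower than Vehicle by a log2 difference of -1.30 (SE 0.214, adjusted p = 0.000431), or 0.405 times its level. TZP stood 2.62-fold above PairFedVehicle (log2 1.39, adjusted p = 0.000183) and LAGIPRA 2.95-fold above it (log2 1.56, adjusted p = 4.38e-05). Neither drug differed detectably from Vehicle, with log2 differences of 0.09 (95% interval -0.35 to 0.53) in TZP and 0.26 (-0.19 to 0.70) in LAGIPRA. The 3 calls against or of PairFedVehicle held under every alternative tried and with any library left out.

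Genes that handle citrate next to the carrier had a like order of groups. Acly, which splits cytosolic citrate into acetyl-CoA and oxaloacetate, ran from 8.65 to 11.19 in TZP and from 9.73 to 11.001 in LAGIPRA, against 6.97 to 7.28 in PairFedVehicle and 9.27 to 9.93 in Vehicle. The pair-fed libraries did not overlap with any others, at a log2 difference of -2.49 from Vehicle (adjusted p = 5.65e-06), and TZP and LAGIPRA were 6.60-fold and 8.48-fold higher than PairFedVehicle, which held under every alternative tried. Me1, which makes NADPH from malate in the cytosol, differed by -1.22 in PairFedVehicle against Vehicle (adjusted p = 0.000609), and by 1.01 in TZP and 1.34 in LAGIPRA against PairFedVehicle, again under every alternative. Of the 9 genes listed around citrate and the malate-aspartate shuttle, 3 were higher in TZP and 5 in LAGIPRA against PairFedVehicle, with none lower. Over all tested genes, 8.39% and 7.30% were higher in these comparisons, and 8.02% and 4.55% lower. In PairFedVehicle against Vehicle, 2 of the 9 were lower, beside 3.66% of all tested genes. The shuttle transaminases Got1 and Got2 were called in none of the 6 comparisons.

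The dicarboxylate carrier Slc25a10, which exchanges malate and succinate for phosphate, was lower than Vehicle in all 3 other groups. Its window is shown for comparison with that of the citrate carrier, in the same way (RefSeq, GRCm38.p6, chr11:120491587-120491886, plus strand).
Slc25a10 promoter: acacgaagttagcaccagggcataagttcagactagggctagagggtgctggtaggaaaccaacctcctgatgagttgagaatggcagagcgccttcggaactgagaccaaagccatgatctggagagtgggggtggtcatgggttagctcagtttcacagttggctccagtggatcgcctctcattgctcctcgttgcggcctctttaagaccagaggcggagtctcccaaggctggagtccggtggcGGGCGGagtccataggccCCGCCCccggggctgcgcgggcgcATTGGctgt
It holds 2 GGGCGG, 1 CCAAT and no CACGTG, with a GC content of 59.7%.

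Slc25a10 had lowest, median and highest values of 4.98, 5.57 and 5.93 in TZP, 5.09, 5.41 and 5.81 in LAGIPRA, 4.60, 5.05 and 5.30 in PairFedVehicle, and 5.88, 6.01 and 6.33 in Vehicle. All LAGIPRA and all pair-fed libraries lay below all Vehicle libraries, and TZP overlapped with Vehicle only at its upper end. The log2 difference from Vehicle was -0.55 in TZP (SE 0.160, adjusted p = 0.0165), -0.61 in LAGIPRA (adjusted p = 0.0178) and -1.04 in PairFedVehicle (adjusted p = 0.000195). TZP was higher than PairFedVehicle by 0.49 (adjusted p = 0.0386), a call that ended under 6 of 16 alternative fits, at 0.07 without TZP 3 to 6 (adjusted p = 0.868), and also without any of TZP 3, 4, 5 or 6 or PairFedVehicle 1, 5 or 6 (adjusted p up to 0.101). Against Vehicle, the TZP call ended under 4 of 16 alternative fits, at -0.35 without TZP 1 and 2 (adjusted p up to 0.155). The LAGIPRA call ended without LAGIPRA 4 (adjusted p = 0.0520) and with the value of 1 read or the macrophage mean in the fit, at -0.39 and -0.52 (up to 0.278). An antisense gene, Gm11788, overlaps Slc25a10 exons, and whether counting used strand was not given. Exons of other members also overlap genes on the other strand, among them Slc25a23, Slc25a25, Slc25a33 and Slc25a37.

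Slc25a11, the oxoglutarate carrier of the malate-aspartate shuttle, was higher with both drugs. Its values were 6.71, 6.94 and 7.06 in TZP, 6.81, 6.91 and 7.06 in LAGIPRA, 6.49, 6.72 and 7.03 in PairFedVehicle, and 6.43, 6.51 and 6.75 in Vehicle (lowest, median and highest). No LAGIPRA library overlapped with Vehicle. The differences from Vehicle were 0.35 in TZP (SE 0.0826, adjusted p = 0.00553) and 0.38 in LAGIPRA (adjusted p = 0.00891), and 0.18 in PairFedVehicle was not called (adjusted p = 0.179). With the length slope in the fit the TZP difference was 0.20 (adjusted p = 0.343), and without TZP 3 to 6 it was 0.19 (adjusted p = 0.292). The LAGIPRA call ended with the value of 1 read or the macrophage mean in the fit, at 0.38 and 0.27 (up to 0.219). Pyruvate enters mitochondria through Mpc1 and Mpc2, which are not SLC25 members. Mpc1 was 0.58 and 0.59 higher in TZP and LAGIPRA than in PairFedVehicle, and Mpc2 0.59 and 0.60 higher, each without overlap of the groups, and these calls held under every alternative tried.

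**Figure D3:**
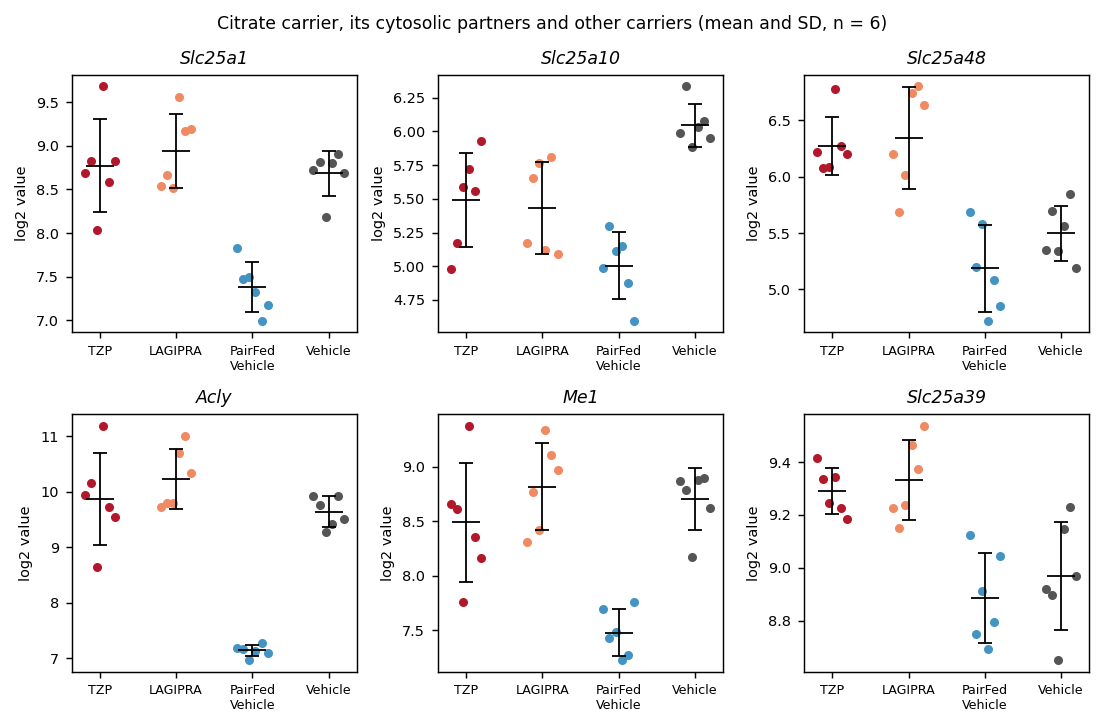
Log2 values (y axis) of Slc25a1, Slc25a10, Slc25a48, Acly, Me1 and Slc25a39 in the 4 groups (x axis), with 1 point per library and bars for the mean and SD of 6. PairFedVehicle has the lowest mean for each of the 6 genes, and for Slc25a1, Acly and Me1 they do not overlap with the others.

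The carnitine-acylcarnitine carrier Slc25a20, which brings fatty acyl groups into the matrix for oxidation, was higher in both drug groups than in Vehicle. Its lowest, median and highest values were 9.89, 10.23 and 10.42 in TZP, 10.11, 10.33 and 10.40 in LAGIPRA, 9.97, 10.21 and 10.54 in PairFedVehicle, and 9.73, 9.88 and 10.10 in Vehicle. LAGIPRA did not overlap with Vehicle, while TZP and PairFedVehicle did. The differences from Vehicle were 0.29 in TZP (SE 0.0963, adjusted p = 0.0314), 0.36 in LAGIPRA (adjusted p = 0.0200) and 0.30 in PairFedVehicle (adjusted p = 0.0527). Neither drug differed detectably from PairFedVehicle, with 95% intervals of -0.21 to 0.19 in TZP and -0.14 to 0.26 in LAGIPRA.

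The macrophage mean moved opposite to Slc25a20. Its group average was lowest in LAGIPRA, where that of Slc25a20 was highest, and highest in Vehicle, where that of Slc25a20 was lowest. The macrophage mean ran from 8.20 to 9.15 in TZP, 8.01 to 9.01 in LAGIPRA, 8.29 to 9.56 in PairFedVehicle and 8.52 to 9.57 in Vehicle over 9 of 9 markers. With that mean in the fit, the differences from Vehicle were 0.12 in TZP (adjusted p = 0.209) and 0.13 in LAGIPRA (adjusted p = 0.492), and neither was called. With the value of 1 read in the fit they were 0.12 and 0.16 (adjusted p = 0.352 and 0.306). In all, 7 of 16 alternative fits ended the TZP call and 2 of 14 the LAGIPRA call. The TZP call also ended without any of Vehicle 1, 2, 3 or 6 or TZP 1, 2 or 4 (adjusted p up to 0.0809), and the LAGIPRA call without any of Vehicle 3 or LAGIPRA 4 or 5 (up to 0.0570). Among 7 genes of carnitine esters and fatty acid oxidation, 5 were higher and 1 lower in LAGIPRA against Vehicle. In TZP against Vehicle none was higher and 1 lower. The shares over all tested genes were 8.70% higher and 5.03% lower in LAGIPRA, and 11.7% and 10.3% in TZP. The lower gene of the 7 was Cpt1a, which forms acylcarnitines at the outer membrane. It ran from 5.51 to 6.34 in TZP and from 5.72 to 6.27 in LAGIPRA, against 6.24 to 7.05 in PairFedVehicle and 6.14 to 6.78 in Vehicle. It differed from Vehicle by -0.57 in TZP (adjusted p = 0.00870) and -0.61 in LAGIPRA (adjusted p = 0.0134), and from PairFedVehicle by -0.64 and -0.68. The calls against Vehicle ended under 4 of 16 alternative fits in TZP, at -0.18 with the length slope (adjusted p = 0.611), and 2 of 14 in LAGIPRA, at -0.33 and -0.57 (up to 0.347). That of TZP against PairFedVehicle ended under 2 of 16, at -0.37 and -0.41 (up to 0.200). Cpt1b, another gene of this step, was among the 5 higher in LAGIPRA against Vehicle. It ran from 11.63 to 11.92 in LAGIPRA and from 11.24 to 11.65 in Vehicle, a difference of 0.33. This call ended under 6 of 14 alternative fits, at 0.10 with the macrophage mean (adjusted p = 0.689).

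Slc25a44, the carrier that brings branched-chain amino acids into brown fat mitochondria, was called only in LAGIPRA against PairFedVehicle among the 6 comparisons. Its lowest, median and highest values were 6.28, 6.67 and 6.83 in TZP, 6.46, 6.76 and 7.08 in LAGIPRA, 5.90, 6.19 and 6.76 in PairFedVehicle, and 6.15, 6.48 and 6.62 in Vehicle. All groups overlapped. LAGIPRA was 1.43-fold higher than PairFedVehicle (log2 0.52, SE 0.133, adjusted p = 0.0120), and this value fell to 0.45 (adjusted p = 0.0501) without the 3 libraries lowest in muscle markers and to 0.40 (adjusted p = 0.0564) with the value of 1 read in the fit. TZP minus PairFedVehicle was 0.33 (adjusted p = 0.0879), LAGIPRA minus Vehicle 0.33 (adjusted p = 0.0950), and TZP minus Vehicle 0.14 (adjusted p = 0.477).

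Of 7 genes that break down or control branched-chain amino acids in the matrix, 2 were higher in TZP and 5 in LAGIPRA against Vehicle. Against PairFedVehicle 1 and 2 were higher, and none was lower in these comparisons. The shares of all tested genes that were higher were 11.7% and 8.70% against Vehicle, and 8.39% and 7.30% against PairFedVehicle. Bckdhb, a subunit of the branched-chain keto acid dehydrogenase, was 0.31 higher in TZP (adjusted p = 0.0109) and 0.33 higher in LAGIPRA (adjusted p = 0.0160) than in Vehicle, and 0.30 and 0.31 higher than in PairFedVehicle. Bcat2, the mitochondrial transaminase of these amino acids, was higher than Vehicle by 0.30 in TZP, 0.31 in LAGIPRA and 0.24 in PairFedVehicle (adjusted p = 0.00683, 0.0117 and 0.0395). For Bckdhb, 5 of 16 alternative fits ended the TZP call against Vehicle, down to 0.20 (adjusted p up to 0.114), 2 of 14 the LAGIPRA call (0.20, up to 0.347), and 5 of 16 and 2 of 14 those against PairFedVehicle. For Bcat2 these were 4 of 16, 2 of 14 and, in PairFedVehicle, 4 of 14 (up to 0.310).

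Among the other amino acid carriers, 3 of 6 tested members were higher in TZP and 2 in LAGIPRA against Vehicle. The shares over all tested genes were 11.7% and 8.70%. Slc25a22, a glutamate carrier, had lowest, median and highest values of 7.08, 7.28 and 7.40 in TZP, 6.84, 7.17 and 7.34 in LAGIPRA, 6.70, 6.98 and 7.34 in PairFedVehicle, and 6.50, 6.69 and 6.98 in Vehicle. All TZP libraries lay above all Vehicle libraries, with a difference of 0.54 (SE 0.0994, adjusted p = 0.00131), and LAGIPRA was 0.43 higher (adjusted p = 0.0113). With the length slope in the fit, the TZP difference was 0.55 and was not called (adjusted p = 0.0645). The LAGIPRA difference was 0.25 with the value of 1 read and 0.22 with the macrophage mean in the fit, and neither was called (up to 0.312).

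Slc25a29, a carrier of basic amino acids, spread widely in Vehicle, with values of 3.28, 3.68 and 4.43 in TZP, 3.25, 3.88 and 4.31 in LAGIPRA, 2.91, 3.12 and 3.85 in PairFedVehicle, and 1.69, 2.81 and 3.73 in Vehicle (lowest, median and highest). Its mean was 3.415 over all libraries but 2.845 in Vehicle, below the filter's cutoff of 2.86. The lowest value, in Vehicle 4, was near the step of 1 read in that library, 1.35. The groups overlapped. It was 0.92 higher in TZP (SE 0.276, adjusted p = 0.0205) and 0.997 higher in LAGIPRA (adjusted p = 0.0223) than in Vehicle, and these calls ended without TZP 6 (adjusted p = 0.0538) and without Vehicle 3 (adjusted p = 0.0517). They also ended under 5 of 15 alternative fits in TZP, at 0.49 with the length slope (adjusted p = 0.499), and 3 of 13 in LAGIPRA, at 0.89 with the macrophage mean (adjusted p = 0.285). Slc25a38, a glycine carrier that feeds heme synthesis, ran from 4.70 to 5.05 in TZP against 4.19 to 4.89 in Vehicle. Its difference of 0.36 (adjusted p = 0.0320) ended without any of Vehicle 1, 2, 3 or 6 or TZP 1, 2 or 6 (up to 0.0922) and under 9 of 16 alternative fits, at 0.21 with the macrophage mean (adjusted p up to 0.272). LAGIPRA at 0.35 was just short of a call (adjusted p = 0.0507).

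Slc25a15, the ornithine carrier of the urea cycle, was called against pair-fed animals and not against Vehicle. It had values of 4.98, 5.22 and 5.72 in TZP, 5.08, 5.24 and 5.42 in LAGIPRA, 4.64, 4.88 and 5.14 in PairFedVehicle, and 4.77, 5.05 and 5.30 in Vehicle (lowest, median and highest). The pair-fed libraries overlapped with both drug groups at their upper end. The difference from PairFedVehicle was 0.41 in TZP (SE 0.120, adjusted p = 0.0214) and 0.37 in LAGIPRA (adjusted p = 0.0463). The TZP call ended without PairFedVehicle 6 (adjusted p = 0.0522), and the LAGIPRA call without any of LAGIPRA 2, 4, 5 or 6 or PairFedVehicle 2, 4, 5 or 6 (up to 0.107). Among alternative fits, 4 of 16 ended the TZP call, at 0.25 without TZP 1 and 2 (adjusted p = 0.128), and 6 of 14 the LAGIPRA call, at 0.25 with the value of 1 read (adjusted p = 0.190).

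Slc25a12, an aspartate-glutamate carrier of the malate-aspartate shuttle, was called in none of the 6 comparisons. Its values were 3.98, 4.67 and 5.84 in TZP, 3.69, 5.16 and 5.54 in LAGIPRA, 3.78, 4.64 and 6.33 in PairFedVehicle, and 3.65, 4.71 and 5.85 in Vehicle (lowest, median and highest). In every group the highest library was the one highest in muscle markers, TZP 5, LAGIPRA 2, PairFedVehicle 6 and Vehicle 5. The SE of its difference between TZP and Vehicle was 0.416, and 0.282 with the muscle mean in the fit. The glutamate carrier Slc25a18 was not called either, at -0.19 in TZP and -0.41 in LAGIPRA against Vehicle (SE 0.301).

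The ADP/ATP carriers exchange cytosolic ADP for matrix ATP. Slc25a4 had lowest, median and highest values of 11.72, 12.03 and 12.60 in TZP, 11.84, 12.16 and 12.40 in LAGIPRA, 11.29, 11.87 and 12.79 in PairFedVehicle, and 11.42, 11.73 and 12.73 in Vehicle. It was lowest of its group in TZP 3, PairFedVehicle 5 and Vehicle 1, the 3 libraries with hardly any muscle signal, and highest in TZP 5, PairFedVehicle 6 and Vehicle 5, which had the highest muscle means of their groups. In LAGIPRA it was highest in LAGIPRA 5, and the muscle mean in LAGIPRA 2. Its differences from Vehicle were 0.23 in TZP, 0.30 in LAGIPRA and 0.10 in PairFedVehicle (SE 0.215), and none of the 6 comparisons was called. With the muscle mean in the fit they were 0.21, 0.10 and 0.09 (SE 0.133, 0.137 and 0.133), and still not called.

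Slc25a5, the other ADP/ATP carrier tested, was higher with both drugs. It had values of 9.96, 10.10 and 10.23 in TZP, 10.03, 10.17 and 10.23 in LAGIPRA, 9.69, 9.86 and 10.08 in PairFedVehicle, and 9.81, 9.90 and 9.99 in Vehicle (lowest, median and highest). All LAGIPRA libraries lay above all Vehicle libraries, at a difference of 0.25 (SE 0.0645, adjusted p = 0.0163), and TZP was 0.19 higher (adjusted p = 0.0344). Against PairFedVehicle it was 0.22 higher in TZP (adjusted p = 0.0241) and 0.27 higher in LAGIPRA (adjusted p = 0.00682), and the LAGIPRA call against PairFedVehicle held under every alternative tried. The TZP call against Vehicle ended without any of Vehicle 1, 2, 3 or 6 or TZP 1, 2 or 4 (up to 0.0882), and that against PairFedVehicle without any of TZP 4 or PairFedVehicle 2 or 4 (up to 0.0700). Under alternative fits, 10 of 16 ended the TZP call against Vehicle, at 0.08 with the length slope removed from each library (adjusted p = 0.434), and 4 of 16 that against PairFedVehicle, at 0.14 (up to 0.207). The LAGIPRA call against Vehicle ended with the value of 1 read or the macrophage mean in the fit, at 0.16 and 0.18 (up to 0.315). A pseudogene of Slc25a5 has a row of its own, so reads may be split between them and the values of Slc25a5 are uncertain.

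Slc25a3, the phosphate carrier that supplies ATP synthase, was called in none of the 6 comparisons, with values from 8.80 to 9.02 in TZP, 8.81 to 8.97 in LAGIPRA, 8.55 to 8.99 in PairFedVehicle and 8.72 to 8.95 in Vehicle. Its differences from Vehicle were 0.10 in TZP (95% interval -0.04 to 0.24) and 0.11 in LAGIPRA (-0.03 to 0.25). Of 9 partner genes of ATP synthesis and transport, 3 were higher in TZP and 6 in LAGIPRA against Vehicle, and none was lower. Over all tested genes, 11.7% were higher and 10.3% lower in TZP, and 8.70% and 5.03% in LAGIPRA. Ppif, a matrix cyclophilin that regulates the permeability transition pore, was 0.58 higher in TZP (adjusted p = 0.00174) and 0.53 higher in LAGIPRA (adjusted p = 0.00787), each without overlap with Vehicle. Vdac2, a channel of the outer membrane, was 0.14 higher in each drug group than in Vehicle (adjusted p = 0.0129 in TZP and 0.0247 in LAGIPRA), again without overlap. The TZP call of Ppif held under every alternative tried, and its LAGIPRA call ended under 2 of 14, at 0.33 and 0.29 (up to 0.234). Those of Vdac2 ended under 5 of 16 in TZP and 3 of 14 in LAGIPRA (up to 0.299).

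The ATP-Mg/phosphate carriers adjust the matrix pool of adenine nucleotides. Slc25a23 was called with LAGIPRA alone, at 7.57, 7.89 and 8.08 in LAGIPRA beside 7.48, 7.56 and 7.60 in TZP, 7.06, 7.44 and 7.89 in PairFedVehicle, and 7.15, 7.36 and 7.75 in Vehicle (lowest, median and highest). The groups overlapped. LAGIPRA was 0.45 higher than Vehicle (SE 0.120, adjusted p = 0.0195) and 0.39 higher than PairFedVehicle (adjusted p = 0.0374), and TZP minus LAGIPRA was -0.28 and not called (adjusted p = 0.238). The call against Vehicle ended without any of Vehicle 1, 3 or 6 or LAGIPRA 4 or 5 (up to 0.0567), and that against PairFedVehicle without any of LAGIPRA 3 to 6 or PairFedVehicle 2 to 6 (up to 0.103). With the macrophage mean in the fit the differences were 0.16 and 0.24 (adjusted p = 0.489 and 0.0663), and in all 2 and 6 of 14 alternative fits ended these calls. Slc25a24, Slc25a25 and Slc25a41 were called in none of the 6 comparisons.

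Both mitoferrins, which carry iron into the matrix for heme and iron-sulfur clusters, were called in TZP against Vehicle and in no other comparison, in opposite directions. Slc25a37, mitoferrin 1, known from erythroid cells, had lowest, median and highest values of 4.27, 4.69 and 5.04 in TZP, 4.95, 5.16 and 5.47 in LAGIPRA, 4.79, 4.95 and 5.61 in PairFedVehicle, and 4.71, 5.25 and 5.52 in Vehicle. TZP was lower than Vehicle by -0.50 (SE 0.156, adjusted p = 0.0254), with overlap. The erythroid mean moved with it: over 6 of 6 markers it ran from 8.93 to 10.37 in TZP, 11.001 to 12.01 in LAGIPRA, 9.09 to 12.16 in PairFedVehicle and 10.29 to 11.82 in Vehicle. With that mean in the fit the difference was -0.21 (adjusted p = 0.444), and with the length slope -0.12 (adjusted p = 0.792). The call ended under 7 of 16 alternative fits, and without any of Vehicle 1 or 3 or TZP 4, 5 or 6 (up to 0.0718).

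Slc25a28, mitoferrin 2, found in most tissues, was higher in TZP, at 6.75, 6.95 and 7.12 in TZP, 6.68, 6.78 and 6.92 in LAGIPRA, 6.58, 6.87 and 7.0 in PairFedVehicle, and 6.40, 6.71 and 6.81 in Vehicle (lowest, median and highest). TZP and Vehicle overlapped, with a difference of 0.27 (SE 0.0834, adjusted p = 0.0248). It was 0.11 with the length slope in the fit (adjusted p = 0.605), and the call ended under 6 of 16 alternative fits, and without any of Vehicle 1 or 3 or TZP 5 (up to 0.0724). Of 12 genes of iron uptake, iron-sulfur clusters and heme, 1 was higher and 2 lower in TZP against Vehicle. In LAGIPRA against Vehicle, 5 were higher and 1 lower. The shares over all tested genes were 11.7% and 10.3% in TZP, so the TZP counts lay near them, and 8.70% and 5.03% in LAGIPRA. Alas1, the first enzyme of heme synthesis outside erythroid cells, was 0.76 higher in TZP and 1.07 higher in LAGIPRA than in PairFedVehicle, and differed by -0.81 in PairFedVehicle against Vehicle (adjusted p = 5.65e-06), with no overlap in any of these 3 and each held under every alternative tried. Its erythroid counterpart Alas2 was lower in TZP than in Vehicle by -1.20 (adjusted p = 0.0410), a call that ended under 8 of 16 alternative fits, and is itself a member of the erythroid list.

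**Figure D4:**
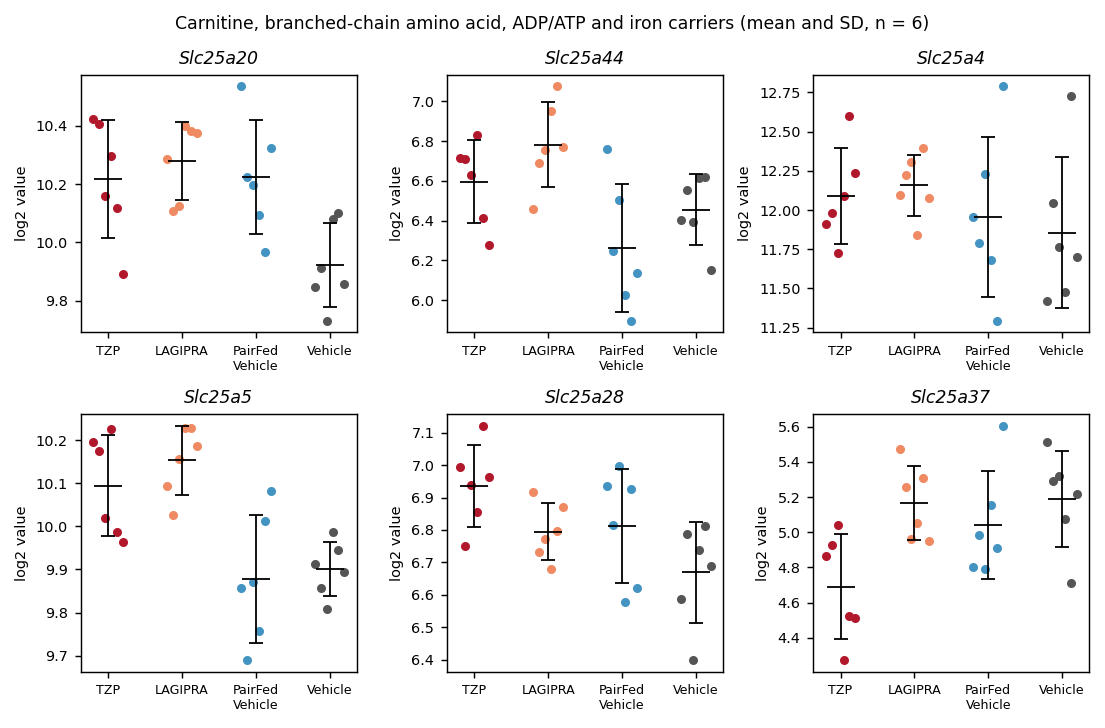
Log2 values (y axis) of the carnitine carrier Slc25a20, the branched-chain amino acid carrier Slc25a44, the ADP/ATP carriers Slc25a4 and Slc25a5 and the mitoferrins Slc25a28 and Slc25a37 in the 4 groups (x axis), with 1 point per library and bars for the mean and SD of 6. Slc25a4 spreads from 11.29 to 12.79 in PairFedVehicle, and Slc25a5 lies between 10.03 and 10.23 in LAGIPRA, above the Vehicle libraries.

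**Figure D5:**
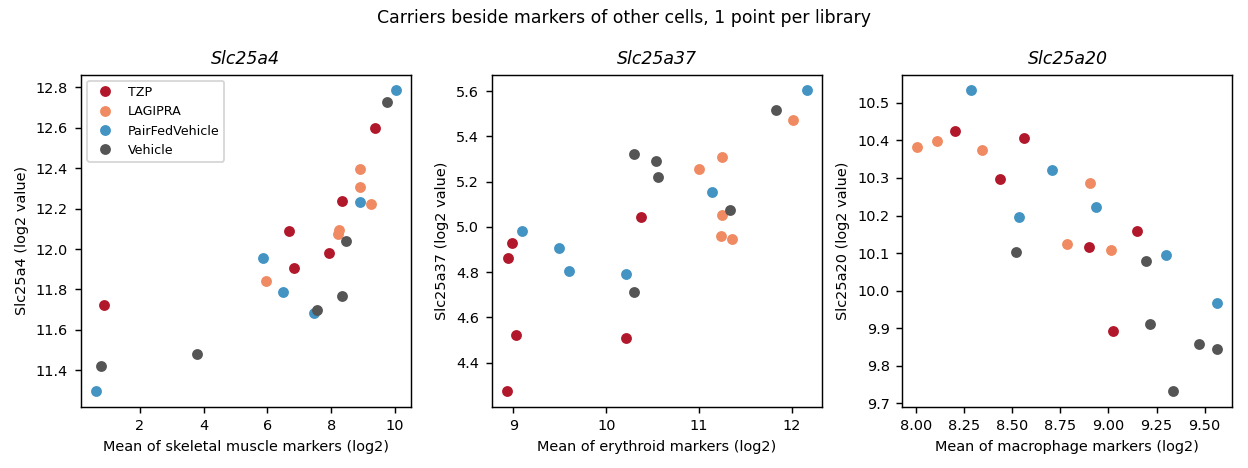
Log2 value of Slc25a4, Slc25a37 and Slc25a20 (y axes) against the mean log2 value of skeletal muscle, erythroid and macrophage markers (x axes), with 1 point per library coloured by group. The Slc25a4 points are low where the muscle mean is under 1, 4 of the 6 TZP points of Slc25a37 lie at erythroid means under 9.1, and Slc25a20 is lowest in libraries with macrophage means above 9.

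Carriers of cofactors and nucleotides included members that were higher with pair feeding. Slc25a16, linked to coenzyme A in mitochondria, had lowest, median and highest values of 6.18, 6.50 and 6.64 in TZP, 6.40, 6.57 and 6.76 in LAGIPRA, 6.40, 6.77 and 6.89 in PairFedVehicle, and 6.01, 6.23 and 6.45 in Vehicle. Only the lowest pair-fed library overlapped with Vehicle. PairFedVehicle was 0.51 higher than Vehicle (SE 0.0905, adjusted p = 0.000957), a call that held under every alternative tried. LAGIPRA was 0.34 higher than Vehicle (adjusted p = 0.0199), which ended without Vehicle 6 or LAGIPRA 5 (up to 0.0589), and with the value of 1 read or the macrophage mean in the fit, at 0.26 and 0.15 (up to 0.464). TZP was lower than PairFedVehicle by -0.27 (adjusted p = 0.0440), which ended without any of TZP 3 to 6 or PairFedVehicle 1, 2, 3, 4 or 6 (up to 0.116) and under 7 of 16 alternative fits, at -0.15 without TZP 3 to 6 (adjusted p = 0.497).

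Slc25a42, which carries coenzyme A into the matrix, was also higher with pair feeding, at 8.59, 9.01 and 9.50 in TZP, 8.74, 9.02 and 9.31 in LAGIPRA, 9.09, 9.36 and 9.92 in PairFedVehicle, and 8.63, 8.89 and 9.17 in Vehicle (lowest, median and highest). The difference of PairFedVehicle from Vehicle was 0.52 (SE 0.148, adjusted p = 0.0286), with overlap, and it ended without any of Vehicle 1, 3 or 6 or PairFedVehicle 1, 2 or 3 (up to 0.0813), and with the erythroid or the macrophage mean in the fit, at 0.49 and 0.44 (up to 0.0552). Slc25a17 carries coenzyme A, FAD and NAD across the peroxisomal membrane. It had values of 7.90, 8.31 and 8.71 in TZP, 7.96, 8.19 and 8.28 in LAGIPRA, 7.82, 7.90 and 8.03 in PairFedVehicle, and 7.60, 7.83 and 7.95 in Vehicle (lowest, median and highest). LAGIPRA did not overlap with Vehicle, and TZP did at its lowest library. TZP was 0.45 higher than Vehicle (SE 0.10, adjusted p = 0.00376), a call that held under every alternative tried, and 0.35 higher than PairFedVehicle (adjusted p = 0.0202), which ended without TZP 4 (adjusted p = 0.0505) and under 3 of 16 alternative fits, at 0.21 without TZP 1 and 2 (adjusted p = 0.1001). LAGIPRA was 0.35 higher than Vehicle (adjusted p = 0.0279), which ended without any of Vehicle 3 or 6 or LAGIPRA 5 or 6 (up to 0.0751), and with the value of 1 read or the macrophage mean in the fit, at 0.23 and 0.20 (up to 0.455).

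Slc25a26, the S-adenosylmethionine carrier, was higher with both drugs, at 5.59, 5.76 and 6.03 in TZP, 5.63, 5.84 and 6.13 in LAGIPRA, 5.43, 5.59 and 5.82 in PairFedVehicle, and 4.99, 5.33 and 5.69 in Vehicle (lowest, median and highest). The groups overlapped at the highest Vehicle library, and the differences from Vehicle were 0.47 in TZP (SE 0.112, adjusted p = 0.00604) and 0.55 in LAGIPRA (adjusted p = 0.00682). The TZP call ended under 4 of 16 alternative fits, at 0.31 with the erythroid mean to 0.56 without TZP 3 to 6 (up to 0.154). The LAGIPRA call ended with the value of 1 read or the macrophage mean, at 0.39 and 0.31 (up to 0.204). Its exons overlap those of Lrig1 on the other strand. Slc25a33, a pyrimidine nucleotide carrier, was 0.64 higher in TZP than in Vehicle (SE 0.152, adjusted p = 0.00583), with values from 5.27 to 5.99 in TZP and from 4.66 to 5.50 in Vehicle. This call ended with the value of 1 read or the length slope in the fit, at 0.40 and 0.87 (up to 0.0645). LAGIPRA at 0.41 was not called (adjusted p = 0.0677). The folate carrier Slc25a32, the pyrimidine nucleotide carrier Slc25a36 and the NAD carrier Slc25a51 were called in none of the 6 comparisons.

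Slc25a39, which brings glutathione into mitochondria, was higher in both drug groups than in either vehicle group. It had values of 9.18, 9.29 and 9.41 in TZP, 9.15, 9.30 and 9.54 in LAGIPRA, 8.69, 8.85 and 9.12 in PairFedVehicle, and 8.65, 8.95 and 9.23 in Vehicle (lowest, median and highest). All drug libraries lay above all pair-fed libraries. The difference from PairFedVehicle was 0.40 in TZP (SE 0.0906, adjusted p = 0.00435) and 0.44 in LAGIPRA (adjusted p = 0.00224), and both calls held under every alternative tried. Against Vehicle the differences were 0.32 in TZP (adjusted p = 0.0145) and 0.36 in LAGIPRA (adjusted p = 0.0151). Of the alternative fits, 6 of 16 ended the TZP call, at 0.18 with the macrophage mean (adjusted p up to 0.185), and 2 of 14 the LAGIPRA call, at 0.21 with the value of 1 read and 0.17 with the macrophage mean (up to 0.378). Slc25a40, its close relative, was called in none of the 6 comparisons, with -0.04 in TZP and -0.20 in LAGIPRA against Vehicle (SE 0.157).

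Slc25a48, described as a carrier for choline import into mitochondria, had the farthest rise of any member in both drug groups against PairFedVehicle after Slc25a1. Its window is shown beside those of Slc25a1 and Slc25a10 (RefSeq, GRCm38.p6, chr13:56438105-56438404, plus strand, same capitals).
Slc25a48 promoter: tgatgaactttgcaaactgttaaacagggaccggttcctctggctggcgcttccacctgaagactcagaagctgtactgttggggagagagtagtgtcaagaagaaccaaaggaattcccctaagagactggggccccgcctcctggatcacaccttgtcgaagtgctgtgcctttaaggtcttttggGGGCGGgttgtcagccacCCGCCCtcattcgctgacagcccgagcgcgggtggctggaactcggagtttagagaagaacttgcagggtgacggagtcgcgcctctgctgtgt
It holds 2 GGGCGG and neither CACGTG nor CCAAT, with a GC content of 56.3%.

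Slc25a48 had lowest, median and highest values of 6.08, 6.21 and 6.78 in TZP, 5.68, 6.42 and 6.80 in LAGIPRA, 4.72, 5.14 and 5.69 in PairFedVehicle, and 5.19, 5.46 and 5.84 in Vehicle. All TZP libraries lay above all libraries of both vehicle groups, and LAGIPRA overlapped with them only through its lowest library. It was 2.13-fold higher in TZP (log2 1.09, SE 0.191, adjusted p = 0.000656) and 2.24-fold higher in LAGIPRA (log2 1.16, adjusted p = 0.000337) than in PairFedVehicle, and both calls held under every alternative tried. Against Vehicle it was 0.78 higher in TZP (adjusted p = 0.00704) and 0.85 higher in LAGIPRA (adjusted p = 0.0104). The TZP difference from Vehicle was 0.65 (adjusted p = 0.152) without TZP 3 to 6, and 0.48 (adjusted p = 0.336) with the length slope in the fit, and 4 of 16 alternative fits ended this call. The LAGIPRA difference from Vehicle was 0.61 with the value of 1 read and 0.42 with the macrophage mean in the fit, and neither was called (up to 0.292). PairFedVehicle minus Vehicle was -0.31 and not called (adjusted p = 0.354).

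Slc25a34 and Slc25a35, a related pair whose substrates are not settled, went separate ways. Slc25a34 was higher with pair feeding, at 7.17, 7.68 and 8.01 in TZP, 6.72, 7.25 and 7.61 in LAGIPRA, 7.59, 8.14 and 8.71 in PairFedVehicle, and 6.52, 7.32 and 7.79 in Vehicle (lowest, median and highest). The pair-fed libraries overlapped with Vehicle at their lower end. PairFedVehicle was 0.88 higher than Vehicle (SE 0.212, adjusted p = 0.0108), LAGIPRA was lower than PairFedVehicle by -0.92 (adjusted p = 0.00586), and both calls held under every alternative tried. Slc25a35 had values of 8.03, 8.20 and 8.63 in TZP, 7.96, 8.36 and 8.62 in LAGIPRA, 7.67, 7.91 and 8.21 in PairFedVehicle, and 7.46, 7.72 and 8.06 in Vehicle (lowest, median and highest). It was 0.51 higher in TZP (SE 0.125, adjusted p = 0.00720) and 0.59 higher in LAGIPRA (adjusted p = 0.00783) than in Vehicle, with overlap. The TZP call ended under 4 of 16 alternative fits, at 0.35 with the value of 1 read to 0.54 without TZP 3 to 6 (up to 0.165). The LAGIPRA call ended with the value of 1 read or the macrophage mean, at 0.42 and 0.27 (up to 0.204). LAGIPRA was 0.40 higher than PairFedVehicle (adjusted p = 0.0375), which ended without any of LAGIPRA 3 to 6 or PairFedVehicle 2, 4, 5 or 6 (up to 0.103) and under 5 of 14 alternative fits, at 0.29 with the value of 1 read (adjusted p = 0.153). Rangrf overlaps Slc25a35 exons on the other strand.

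No member was called in TZP against LAGIPRA by limma, where 0.0521% of all tested genes were higher and 0.348% lower. Of the 38 tested members, 4 had an unadjusted limma p under 0.05, beside 2835 of the 17263 tested genes, which is a larger share. These 4 members, Slc25a23, Slc25a25, Slc25a36 and Slc25a37, were all lower in TZP. Slc25a25, an ATP-Mg/phosphate carrier, had values of 4.63, 4.80 and 5.22 in TZP and 5.30, 5.38 and 5.49 in LAGIPRA (lowest, median and highest). All TZP libraries lay below all LAGIPRA libraries, at a difference of -0.54 (95% interval -0.83 to -0.25, adjusted p = 0.0646); it is the 1 member without overlap here, beside 0.811% of all tested genes. The 95% interval of TZP minus LAGIPRA was -0.65 to 0.49 for Slc25a29 and -0.47 to 0.32 for Slc25a48, the members farthest above Vehicle in both drug groups. Vehicle values of Slc25a29 were low, as given above.

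Other members are listed by name, with values for Slc25a13 only. The carriers related to uncoupling proteins, Slc25a14 and Slc25a30, and the members Slc25a45 and Slc25a46 were called in none of the 6 comparisons. Slc25a2, Slc25a13, Slc25a21, Slc25a27, Slc25a43, Slc25a47, Slc25a53 and Slc25a54 lay among the 25% of genes with the lowest mean and were not tested. Of these, Slc25a13, the other aspartate-glutamate carrier, ran from 1.72 to 3.28 in TZP, 1.44 to 2.70 in LAGIPRA, 1.74 to 3.50 in PairFedVehicle and 1.33 to 3.43 in Vehicle. No value is given for Slc25a31 and Slc25a52, which had no row.

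RefSeq windows of the same length were found for 35 of the 46 members (45 windows). The letters GGGCGG stood in 37 of the 45 windows, beside 35.66% of 32851 mouse windows, CCAAT in 22, beside 37.41%, and CACGTG in 7, beside 7.15%. AAGGTCA stood in 1 window, of Slc25a34, beside 4.72%, and TCACNCCAC in 1 window, of Slc25a18, beside 1.24%. Each motif was searched on both strands, and the 7 windows with CACGTG belonged to Slc25a1, Slc25a13, Slc25a14, Slc25a15, Slc25a33 and Slc25a36.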

How the data were processed

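PolyA RNA of brown adipose tissue was sequenced in 24 samples of 4 groups of 6. Per the labels' protocols, extraction used TRIzol, then an RNeasy lipid kit. The submitters' processing notes name cutadapt 1.9.1 and GSNAP without their roles. The sources used here do not give the build, annotation, counter or strandedness. The authors deposited 1 table of log2 values for 23017 genes, and its scale was inferred. Quantiles hardly differed between libraries, as quantile normalization leaves them (25% quantile from 2.88 to 2.95). An offset of 1 was taken from the look of the low values and was not tested, so the value of 1 read rests on an assumption. The lowest value was -0.50 and the highest 22.35. Read totals are unknown.

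The 25% of genes with the lowest mean (5754, mean below 2.86) were not tested, which left 17263. The model was fitted with limma 3.58.1 (R 4.3.3), with 1 mean per group over 24 samples, empirical Bayes moderation with a trend (20 residual degrees of freedom), and two-sided Benjamini-Hochberg values over all tested genes, with a threshold of 0.05. The median SE of a log2 difference was 0.15. The code was tested on simulated data. Library properties were compared with exact permutation tests over 924 assignments, two-sided, adjusted over 42. Length slopes used 15407 genes of known length (89.2%), all 38 tested members among them. Replicate numbers did not pair samples: deviations of same-numbered samples correlated between -0.602 and 0.378. Correlations across genes within groups were 0.911 to 0.977, where genes are not independent. Members were described by role, with values for each called member except 1, which is counted but not reported here by name, and for the main carriers. Members, roles and partner lists were chosen with earlier results of these data known. The alternatives were other filters, centring, variance models, sample weights, a replicate block, covariates and the removal of libraries. Figures were drawn with matplotlib 3.10.9.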

Additional observations from a re-analysis of the deposited data

Results flagged for a closer look

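In 6 of 152 groups of 6 libraries, the highest or lowest value of a tested member lay far from the others relative to the range of the group, where chance gives about 1 in 20 groups. Slc25a1 was 8.18 in Vehicle 3, where the nearest of the others was 8.69 and the highest 8.90, so the Vehicle group reached toward the pair-fed libraries through this library alone. Slc25a16 was 6.18 in TZP 6, where the nearest was 6.47, and 6.40 in PairFedVehicle 5, where the nearest was 6.75. Slc25a25 was 5.79 in Vehicle 5, above the nearest at 5.14. Slc25a41 was 5.28 in LAGIPRA 1, below the nearest at 5.82. Slc25a48 was 6.78 in TZP 4, above the nearest at 6.28. The calls of Slc25a1 and Slc25a48 against PairFedVehicle were kept without these libraries, and the call of Slc25a16 in TZP against PairFedVehicle was lost without TZP 6 (adjusted p = 0.116).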

How the results depend on the processing

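Counts of called members for TZP against Vehicle (15) were 9 with only the 2 groups compared, 6 with the value of 1 read, 4 with the erythroid mean, 2 with the length slope and 8 with the macrophage mean as a covariate, and 7 without TZP 3 to 6. LAGIPRA against Vehicle (14) gave 0 with the value of 1 read and 0 with the macrophage mean. PairFedVehicle against Vehicle (5) gave 8 with sample weights. TZP against PairFedVehicle (8) gave 3 with only the 2 groups and 4 with the erythroid mean. LAGIPRA against PairFedVehicle (10) gave 6 with the muscle mean and 5 without the 3 libraries lowest in muscle. TZP against LAGIPRA (0) gave 2 with sample weights and 3 without TZP 1 and 2. Over all tested genes, TZP against Vehicle (3805) gave 2514, 2496, 1665, 203 and 2528 under the same 5 settings in that order, and 817 without TZP 3 to 6. LAGIPRA against Vehicle (2370) gave 4783 with weights, 45 with the value of 1 read, 1448 with the muscle mean, 1233 without the 3 libraries lowest in muscle and 0 with the macrophage mean. TZP against PairFedVehicle (2832) gave 1503 with only the 2 groups, 988 with the length slope and 1031 without TZP 3 to 6. LAGIPRA against PairFedVehicle (2046) gave 3260 with weights and 1257 with the value of 1 read. TZP against LAGIPRA (69) gave 15 with no filter, 3 with only the 2 groups, 15 with no trend, 1071 with weights, 268 with the value of 1 read, 0 with the erythroid mean, 0 with the length slope, 2 without TZP 3 to 6, 2251 without TZP 1 and 2, 23 without the 3 libraries lowest in muscle and 38 with the macrophage mean. The causes were not tested.

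With a replicate block, the member counts were 14, 14, 5, 7, 7 and 0 for TZP, LAGIPRA and PairFedVehicle against Vehicle, TZP and LAGIPRA against PairFedVehicle, and TZP against LAGIPRA, and 23 of all genes were called in the last. The samples share only a number, and in 6 of 36 same-numbered pairs over the 6 comparisons the sample correlated best with its own number. With each library left out in turn, the same 6 member counts ran from 10 to 16, 9 to 18, 4 to 7, 4 to 10, 6 to 11 and 0 to 2, and the counts of all genes from 2739 to 4494, 945 to 3819, 1049 to 1620, 2018 to 3181, 1404 to 2472 and 0 to 1088. No called member changed direction under any alternative. Among the partner genes reported, Alas2 in TZP against Vehicle turned to 0.16 with the erythroid mean, which includes Alas2.

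Depth is unknown, and low genes have understated differences. Brown adipocyte, muscle, erythroid, macrophage and endothelial marker levels and length slopes differed between libraries.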
